A study of Homo sapiens with 5 samples.

Results

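Strong intronic hotspots were stretches of open chromatin inside genes but away from their starts, taken from a single list of hotspots that was called on 5 pooled ATAC-seq libraries of MCF10A cells. A hotspot is a region where transposase insertions pile up above the local background. The regions described here were chosen by their score in that list (at or above 10.04) and by their place: the midpoint lay within a protein-coding gene of GENCODE release 44, outside its exons and more than 1000 bp from every transcription start site (TSS) of a protein-coding gene. Chromosomes X, Y and 20 and chromosome 5 beyond 120 Mb were left out by the rule. Of the 181723 hotspots in the list, 157613 lay on the chromosomes kept and 32556 of these (20.7%) reached the score. Of the 56225 hotspots with an intronic position, 8080 (14.4%) reached it, and these 8080 are the strong intronic hotspots. They are set beside 48145 intronic hotspots below the score (weaker intronic), 13362 strong hotspots outside protein-coding genes and over 1000 bp from a TSS (strong intergenic), and 10596 strong hotspots within 1000 bp of a TSS (strong promoter).

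MCF10A is an immortalized, non-tumorigenic line of human breast epithelium. The 5 libraries (replicates 1, 2, 3, 5 and 6) all carried the treatment label baseline, and the cells grew with 5% horse serum, 20 ng/ml EGF, 0.5 µg/ml hydrocortisone, 100 ng/ml cholera toxin and 10 µg/ml insulin. The study mapped their open chromatin so that regulatory DNA in breast cells could be searched for transcription factor motifs near breast cancer risk loci. Because the libraries were pooled before the call, each hotspot has 1 score and no spread between samples, the depth is unknown, and no level was tested between samples. The sources used here do not state what the score measures, so it is read only as an order within the list.

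Introns hold many of the enhancers of a cell. An enhancer is bound by sequence-specific factors that displace nucleosomes, which leaves a short accessible stretch that the Tn5 transposase can cut. In epithelial cells grown with EGF, signalling through ERK raises the FOS and JUN proteins, which pair as AP-1. TEAD factors bind DNA together with YAP1, RUNX factors act in many lineages, and CTCF marks insulators and the anchors of chromatin loops. Introns also hold most of the interspersed repeats of a gene, such as Alu, L1 and SVA elements, whose copies are so alike that a short read from one can fit many places.

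Sequences were read from the hg38 genome, and the central 120 bp of a hotspot was searched on both strands for 36 consensus motifs. The first set shows hotspots that hold a site of a factor family, in genes the results below turn on. Every sequence is the forward strand, and the site is in capitals on whichever strand it lies: AP-1 as TGACTCA or TGAGTCA, TEAD as ACATTCC or GCATTCC followed by A or T, RUNX as TGTGGTT followed by A or T, and CTCF by a longer consensus. The AP-1 sites lay in CLDN4 (a tight junction claudin), LHFPL2 and PDE4D (a phosphodiesterase that degrades cAMP). The PDE4D window fell in intron 2 of the canonical transcript, whereas those of CLDN4, whose canonical transcript has no intron, and LHFPL2 fell within the annotated gene but outside the introns of that transcript.
CLDN4 (chr7:73822735-73822854): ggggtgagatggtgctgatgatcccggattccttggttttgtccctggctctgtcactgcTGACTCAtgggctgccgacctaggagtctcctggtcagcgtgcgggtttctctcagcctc
LHFPL2 (chr5:78699797-78699916): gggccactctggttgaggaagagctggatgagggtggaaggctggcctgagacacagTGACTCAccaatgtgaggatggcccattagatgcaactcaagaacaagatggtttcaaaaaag
PDE4D (chr5:59194061-59194180): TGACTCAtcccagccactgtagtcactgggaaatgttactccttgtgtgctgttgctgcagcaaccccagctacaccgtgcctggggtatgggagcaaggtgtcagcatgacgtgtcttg
The TEAD sites lay in introns 3 and 4 of the canonical transcripts of ESR1, which encodes estrogen receptor alpha, and TP63, which encodes the transcription factor p63 of basal epithelium.
ESR1 (chr6:151901157-151901276): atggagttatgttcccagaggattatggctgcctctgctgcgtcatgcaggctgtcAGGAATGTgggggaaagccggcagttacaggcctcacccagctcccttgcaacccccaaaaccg
TP63 (chr3:189842460-189842579): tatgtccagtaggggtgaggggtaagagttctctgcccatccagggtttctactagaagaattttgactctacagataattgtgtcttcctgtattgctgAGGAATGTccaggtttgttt
The RUNX sites lay in ANAPC1, a subunit of the anaphase-promoting complex, and the first of these windows also reads tgactca, an AP-1 site, after the RUNX site. Both lay outside the introns of the canonical transcript.
ANAPC1 (chr2:111699039-111699158): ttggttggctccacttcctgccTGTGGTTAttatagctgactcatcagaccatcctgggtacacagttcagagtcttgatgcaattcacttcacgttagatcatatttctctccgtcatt
ANAPC1 (chr2:111705853-111705972): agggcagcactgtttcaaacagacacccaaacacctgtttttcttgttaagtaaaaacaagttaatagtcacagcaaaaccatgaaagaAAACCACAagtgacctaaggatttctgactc
The CTCF sites lay in ACTB (beta-actin), outside the introns of its canonical transcript, and in intron 3 of PDE4B (another cAMP phosphodiesterase).
ACTB (chr7:5558983-5559102): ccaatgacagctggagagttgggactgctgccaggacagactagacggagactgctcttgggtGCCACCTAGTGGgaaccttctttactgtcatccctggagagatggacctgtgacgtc
PDE4B (chr1:66242796-66242915): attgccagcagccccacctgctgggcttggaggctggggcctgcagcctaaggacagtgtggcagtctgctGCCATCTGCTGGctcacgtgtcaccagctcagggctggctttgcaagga
The hotspots of these 9 windows scored 32.8 (CLDN4), 32.3 (LHFPL2), 31.9 (PDE4D), 32.3 (ESR1), 21.8 (TP63), 20.3 and 13.9 (ANAPC1), 13.7 (ACTB) and 11.6 (PDE4B). All 9 stood in sequence that was mostly unique in the genome.

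The hotspots with the highest scores looked different. The first 3 lay in CCDC200, PRKG1 (a cGMP-dependent protein kinase) and CD2AP (an adaptor protein of the actin cytoskeleton and endocytosis), and none of them held an AP-1, TEAD, RUNX or CTCF site. The window of the CCDC200 hotspot is shown because it had the highest score of all. This hotspot lay outside the introns of the canonical transcript and overlapped an annotated U2 snRNA gene, the RNA part of a spliceosome particle.
CCDC200 (chr17:43245516-43245635): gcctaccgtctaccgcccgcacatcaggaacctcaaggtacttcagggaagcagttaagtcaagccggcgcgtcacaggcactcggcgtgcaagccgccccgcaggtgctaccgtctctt
The scores of the 3 hotspots were 385, 253 and 225, and 100%, 100% and 97.9% of their 24-base words (24-mers) occurred more than once in hg38. The median 24-mer had 13 copies in the CCDC200 hotspot, 815 in the PRKG1 hotspot and 403 in the CD2AP hotspot.

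The 8080 strong intronic hotspots had scores from 10.0412 to 385, with quartiles of 11.6, 14.1 and 18.9. The hotspots just inside the threshold lay in ADAMTS3 and LAMA2 (both 10.0412), SH2D4B (10.0425), OLFM2 (10.046) and NREP (10.0472), and those just outside in PFKP (10.0395), ROBO2, HYDIN, TUBGCP3 and ACER3 (each 10.0384). The scores on the inner and outer side of the cut lay close together. Their width had a median of 424 bp (10 to 4417 bp), against 256 bp in weaker intronic, 417 bp in strong intergenic and 971 bp in strong promoter hotspots. Width came from the same call as the score and was not tested. Their GC content in the central 300 bp had a median of 50.3%, against 52.0% in weaker intronic, 49.7% in strong intergenic and 68.3% in strong promoter hotspots. The median distance to the nearest protein-coding TSS was 14414 bp, against 12790 bp in weaker intronic hotspots.

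The rule used the span of a gene over all its transcripts, so the intronic label was checked against other annotation. Of the 8080, 7740 lay in 1 protein-coding gene, 319 in 2 overlapping genes and 21 in 3 or more. Of those in 1 gene, 1139 (14.7%) lay outside the introns of the gene's canonical transcript, against 13.3% of weaker intronic ones. The same held for 12 of the 14 hotspots of GSE1, 10 of the 14 of ANAPC1, 10 of the 19 of RAD51B and 9 of the 15 of RUNX1. It held for 4 of the 15 of NAV2 and for 0 in PTPRN2, RABGAP1L, LINGO2, TENM4 and RPTOR. Among genes with the highest scores, it held for all 10 hotspots of CCDC200 and all 3 of DUX4, and for 0 of the 9 of PRKG1. An edge reached into a protein-coding exon in 351 hotspots (4.34%), and 141 (1.75%) had their midpoint in an exon of some other annotated gene, such as a noncoding RNA. A TSS of any annotated gene lay within 1000 bp of 289 of them (3.58%), against 2.94% of weaker intronic and 11.2% of strong intergenic hotspots.

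Strong intronic hotspots fell into separate groups by how often their sequence occurs in the genome. In 4256 of them (52.7%, 95% Wilson interval 51.6 to 53.8%) at most 50% of the 24-mers occurred more than once in hg38 (single-copy), in 3764 (46.6%, 45.5 to 47.7%) more than 50% did (multi-copy), and 60 (0.743%) were narrower than 24 bp and could not be assigned. Few lay between the extremes: 44.2% had under 10% repeated 24-mers and 39.4% had over 90%. The same introns were sampled by moving each hotspot's span 2000 bp to either side, keeping the 12724 windows that met no hotspot or exon. Of these flanking windows, 48.8% had under 10% repeated 24-mers and 12.3% over 90%, and 25.7% in all were multi-copy. The multi-copy share was 34.1% in weaker intronic, 54.9% in strong intergenic and 4.24% in strong promoter hotspots.

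**Figure D1:**
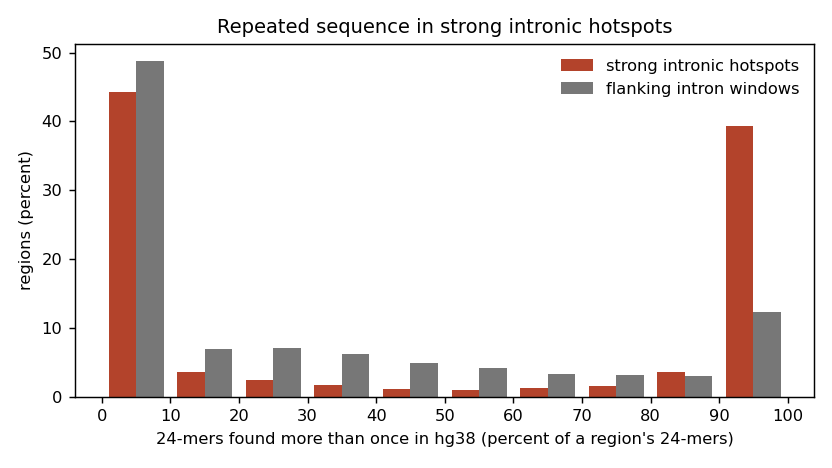
Share of regions (percent, vertical axis) in bins of 10 points of the percentage of a region's 24-mers that occur more than once in hg38 (horizontal axis), for strong intronic hotspots and for flanking intron windows of the same widths. The hotspots gather at both ends (44.2% and 39.4%), whereas 12.3% of the flanking windows are in the highest bin.

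Single-copy and multi-copy hotspots differed in size and score. Single-copy hotspots had a median score of 13.5 (10.046 to 53.4) and a median width of 535 bp. Multi-copy hotspots had a median score of 14.7 (10.0412 to 385) and a median width of 303 bp, and their median 24-mer had 1466.5 copies in the genome. All scores above 53.4 therefore belonged to hotspots that were multi-copy or too narrow to assign. The highest-scoring single-copy hotspots lay in TRIP13 (53.4), a mitotic checkpoint ATPase, PTK2B (46.5), a focal adhesion kinase relative, MAMSTR (45.1), PEG10 (44.7) and CNIH3 (41.6). The TRIP13 hotspot overlapped an annotated long noncoding RNA gene, and an annotated TSS lay 180 bp from its midpoint. Those of PTK2B, MAMSTR, PEG10 and CNIH3 were over 1000 bp from any annotated TSS.

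The multi-copy share was largest among the highest scores. In deciles of score it was 36.01% in the lowest, lay between 39.6% and 50.5% in the 8 deciles between, and was 78.2% in the highest. All of the 10 and all of the 50 highest-scoring hotspots were multi-copy, as were 99 of the highest 100, 441 of the highest 500 and 736 of the highest 1000. The study's printed alignment command sets no option for reads that fit several places, and the sorting and merging commands after it remove none. How such reads were shared out among the copies is not described beyond this, and their part in these scores was not tested.

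**Figure D2:**
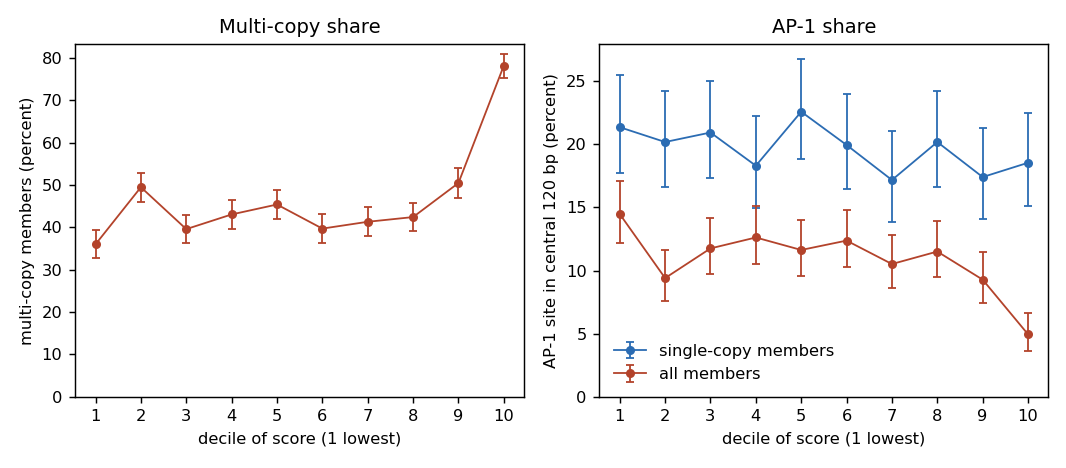
Strong intronic hotspots in deciles of score (horizontal axis, 1 lowest), with the percentage that are multi-copy (left) and the percentage with an AP-1 site in the central 120 bp (right; all hotspots and single-copy hotspots, each set cut into its own deciles). Bars are 95% Wilson intervals, and the multi-copy share is 78.2% in the highest decile.

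The 10 highest-scoring hotspots lay in CCDC200 (385, 167 and 167), PRKG1 (253), CD2AP (225), HFM1 (217, a helicase of meiotic recombination), ART1 (213), DUX4 (163), AP3S2 together with the overlapping ARPIN-AP3S2 (163) and ZNF385D (150). CCDC200 held 10 strong intronic hotspots in all, with a median score of 64.1 and none single-copy, and 4 of them overlapped an annotated snRNA gene, RNU2-1 or an unnamed U2 copy. DUX4, a transcription factor of the early embryo, lies in a macrosatellite repeat at a chromosome end, and its 3 hotspots were multi-copy too.

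Repeat families were traced by the 24-mers that multi-copy hotspots share. The 24-mer held by most hotspots was taken, its hotspots set aside, and the step repeated, and 8 rounds covered 1539 of the 3764 multi-copy hotspots (40.9%). They are printed because they name the repeats. No repeat annotation was used, and the family names are given from the known consensus sequences.
Round 1: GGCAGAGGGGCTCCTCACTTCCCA
Round 2: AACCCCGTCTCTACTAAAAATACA
Round 3: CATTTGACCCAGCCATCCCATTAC
Round 4: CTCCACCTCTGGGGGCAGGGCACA
Round 5: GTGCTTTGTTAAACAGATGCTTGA
Round 6: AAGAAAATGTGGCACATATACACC
Round 7: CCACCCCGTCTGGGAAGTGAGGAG
Round 8: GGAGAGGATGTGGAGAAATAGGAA
Rounds 1, 5 and 7 are pieces of the SVA element, round 2 is a piece of Alu, round 4 comes from the 5′ end of L1 and rounds 3, 6 and 8 from its 3′ portion.

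An SVA piece was the single word held by most hotspots. The SVA rounds took 362, 128 and 93 hotspots, and the L1 rounds 233, 233, 95 and 86. The word of round 1 was held by 362 strong intronic hotspots (9.62% of the multi-copy ones), with a median width of 1248.5 bp, a median GC content of 76.7% and scores up to 163, in the AP3S2 hotspot. That of round 5 was held by 253 hotspots, 128 of them not yet taken, with scores up to 225, in the CD2AP hotspot. The Alu word was held by 309 hotspots with a median score of 11.7 and none above 23.02, and its median hotspot had 13932 copies. Alu pieces were thus common in number but near the threshold in score.

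L1 pieces reached higher. The 5′ L1 word was held by 233 hotspots with a median score of 17.0, up to 253 in PRKG1, and the first 3′ L1 word by another 233 with a median of 16.8, up to 111 in TBXAS1 (thromboxane synthase). AP-1 sites were absent from the central 120 bp of the hotspots taken in 7 of these 8 rounds, and were found in 0.324% of the Alu round.

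Narrow hotspots could also score high. Among the 60 that were under 24 bp wide, the highest scores were 78.1 in KHDRBS2 (18 bp) and 44.9 in CPNE4 (12 bp), and their median was 13.6.

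Nuclear copies of mitochondrial DNA formed a small set. A 24-mer of the mitochondrial genome occurred in 9 of the 8080 strong intronic hotspots (0.111%), against 5 of the 48145 weaker intronic hotspots (0.0104%), a ratio of 10.7 (two-sided Fisher's exact test, p = 3.93e-05 adjusted over 3 tests). Strong intergenic hotspots stood at 18 of 13362 (0.135%). The test took no account of width, which had a median of 424 bp in strong and 256 bp in weaker intronic hotspots. Among the 9 strong intronic ones were hotspots in KIF5C (36.8), KIAA0825 (33.4), PDZRN4 (27.8), AKAP6 (27.04), SMAD2 (25.1), CPA6 (15.01), VPS13B (10.9) and PPM1L (10.5). Those in KIAA0825, AKAP6 and SMAD2 overlapped annotated mitochondrial pseudogenes. The study's methods drop mitochondrial reads for the coverage track but give no such step for the reads passed to the hotspot call, and the part of such reads in these scores was not tested.

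Against weaker intronic hotspots, strong intronic hotspots held more sites of AP-1 and of several other factor families. Of 36 motifs, 11 (30.6%) were more frequent and 1 (2.78%) less frequent in the central 120 bp (two-sided Fisher's exact tests, Benjamini-Hochberg over 108 tests). AP-1 was found in 877 strong intronic hotspots (10.9%, 10.2 to 11.6%), against 2887 weaker ones (5.996%), a ratio of 1.81 (exact adjusted p = 1.81e-50). Higher too were RUNX (2.26% against 1.30%, exact adjusted p = 1.72e-09), TEAD (3.43% against 2.52%, exact adjusted p = 2.44e-05), CEBP, the C/EBP leucine zipper site (1.35% against 0.808%, exact adjusted p = 2.58e-05), and the epithelial ETS site EHF/ELF, AGGAAGTG (1.97% against 1.17%, exact adjusted p = 1.5e-07). The octamer of POU factors, ATGCAAAT, stood at 1.09% against 0.447% (exact adjusted p = 3.63e-10), the SP box GGGGCGGG at 1.35% against 0.579% (exact adjusted p = 1.62e-11), and TFAP2, GCCNNNGGC, at 5.41% against 4.50% (exact adjusted p = 0.00126). The other motifs that were higher included BACH/MAF, which contains the AP-1 site, and the palindromic SMAD3 site. KLF, CCACACCC, was lower at 1.47% against 2.71% (exact adjusted p = 2.45e-11), and CTCF did not pass the test (0.891% against 1.12%, exact adjusted p = 0.144). The KLF difference turned to 2.20% against 1.88% (exact adjusted p = 0.268) without multi-copy hotspots, and the AP-1 difference was 7.05% against 6.68% (exact adjusted p = 0.988) with a threshold of 20. CEBP (log2 ratio -0.34) and SMAD3 (-1.63) also turned with that threshold, and SP (-0.07) in windows of 40 to 60% GC. The motifs that differed numbered 5 with that threshold and 30 over the whole width of the hotspots, in place of 12.

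Strong promoter hotspots differed from strong intronic ones in most of the motifs searched. Of the 36 motifs, 15 (41.7%) were more frequent in strong intronic hotspots and 12 (33.3%) less frequent. AP-1 stood at 10.9% against 2.33% (exact adjusted p = 5.69e-131), TEAD at 3.43% against 0.934% (exact adjusted p = 2.78e-32), RUNX at 2.26% against 0.425% (exact adjusted p = 2.32e-29) and CEBP at 1.35% against 0.349% (exact adjusted p = 1.16e-13). FOX, TGTTTAC followed by A or T, stood at 1.23% against 0.444%, GATA at 1.19% against 0.349% and CTCF at 0.891% against 0.500% (exact adjusted p = 0.00444). The flanking windows held FOX in 1.19%, GATA in 1.57% and SOX in 1.05%, the last beside 1.00% in strong intronic hotspots. The remaining higher motifs included BACH/MAF, EHF/ELF, KLF, SOX, SMAD3, POU and the glucocorticoid receptor element, found in 9 strong intronic and 2 strong promoter hotspots. Over the whole width of the hotspots, CTCF (log2 ratio -0.54), KLF (-0.88), EHF/ELF (-0.08), SMAD3 (-0.26) and SOX (-0.001) turned, as did CTCF (-0.05) and SMAD3 (-0.96) with a threshold of 20 and EHF/ELF (-0.31) in windows of 40 to 60% GC.

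Several of the motifs that were lower are known from CpG-rich promoters. SP stood at 1.35% against 15.4% (exact adjusted p = 1.42e-285), TFAP2 at 5.41% against 17.8%, NFY, a CCAAT box, at 1.09% against 4.39%, and the ETS site of GABPA/ELK, CCGGAAGT, at 0.0743% against 2.37%. NRF1, a regulator of respiratory chain genes, had 1 strong intronic hotspot with a site, against 64 strong promoter hotspots. YY1, CRE (the cAMP response element), USF/MAX, NF-kB, EGR, ZNF143 and RFX were lower as well, and RFX was found in 0 of the 8080 and in 8 strong promoter hotspots. The motifs that differed numbered 16 with a threshold of 20 and 11 among windows of 40 to 60% GC, in place of 27.

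Strong intergenic hotspots resembled the strong intronic ones most closely. Of the 36 motifs, 4 (11.1%) were higher in strong intronic hotspots and 1 (2.78%) was lower. AP-1 stood at 10.9% against 9.26% (exact adjusted p = 0.000541), FOX at 1.23% against 0.711% (exact adjusted p = 0.000614), EHF/ELF at 1.97% against 1.47% (exact adjusted p = 0.018), SMAD3 at 0.186% against 0.0524% (exact adjusted p = 0.0178) and NFY at 1.09% against 1.53% (exact adjusted p = 0.0174). CTCF was at 0.891% against 1.09% (exact adjusted p = 0.271), and FOX was at 1.19% in flanking windows. Without multi-copy hotspots none of the 36 passed the test, as with a threshold of 20, and AP-1 was at 19.4% against 18.3% (exact adjusted p = 0.302). The AP-1 difference also lost the call with a threshold of 20 (exact adjusted p = 0.75), in windows of 40 to 60% GC (exact adjusted p = 0.0973) and with 1 hotspot per gene (exact adjusted p = 0.173), and its adjusted p lay between 6.14e-09 and 0.75 over all alternatives.

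**Figure D3:**
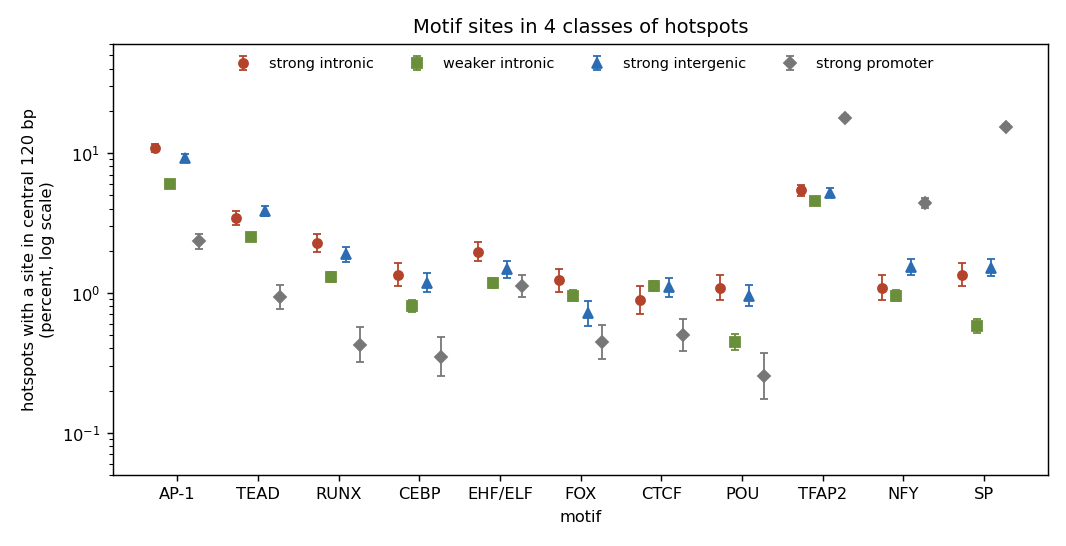
Percentage of hotspots with a motif site in the central 120 bp (vertical axis, log scale, 95% Wilson intervals) for selected motifs (horizontal axis) in strong intronic, weaker intronic, strong intergenic and strong promoter hotspots. AP-1 stands at 10.9% in strong intronic and 2.33% in strong promoter hotspots, whereas SP stands at 1.35% and 15.4%.

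Nearly all of the AP-1 sites lay in single-copy hotspots. In the central 120 bp, 837 of the 4256 single-copy strong intronic hotspots (19.7%, 18.5 to 20.9%) held an AP-1 site, as did 40 of the 3764 multi-copy ones (1.06%, 0.781 to 1.44%) and 0 of the 60 narrow ones. Flanking windows held one in 1.52% of all and 1.76% of single-copy windows. Among single-copy hotspots the share was 8.38% in weaker intronic, 18.7% in strong intergenic and 2.34% in strong promoter hotspots. Across score deciles the AP-1 share over all strong intronic hotspots was 14.5% in the lowest and 4.95% in the highest, but within single-copy hotspots it was 21.4% and 18.5%. The decline over all hotspots thus ran beside the larger multi-copy share of the highest decile.

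Other motifs divided between single-copy and multi-copy strong intronic hotspots in different ways. TEAD stood at 4.75% in single-copy and 1.97% in multi-copy hotspots (flanking windows 2.18%), CEBP at 2.47% and 0.106% (flanking windows 0.849%), TFAP2 at 8.91% and 1.54% (flanking windows 1.80%), and CTCF at 1.43% and 0.292% (flanking windows 0.0865%). RUNX stood at 2.44% and 1.99% with overlapping intervals (flanking windows 1.98%), and POU ran the other way, at 0.611% and 1.57% (flanking windows 1.23%). Split the same way, single-copy and multi-copy flanking windows held RUNX in 1.76% and 2.63% and POU in 1.16% and 1.38%. The higher POU share against weaker intronic hotspots therefore lay mainly in multi-copy sequence, with 59 of the 88 hotspots that held the site. EHF/ELF stood at 2.09% in single-copy and 1.86% in multi-copy hotspots, and 70 of its 159 hotspots were multi-copy. Split the same way, weaker intronic hotspots held EHF/ELF in 1.42% and 0.713%, and flanking windows in 0.921% and 0.245%.

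AP-1 sites gathered at the midpoint. In single-copy strong intronic hotspots they occurred at 193 per 1000 hotspots per 100 bp within 60 bp of the midpoint and at 23.03 between 300 and 500 bp away, a ratio of 8.38. The ratio was 6.47 for CTCF, 2.69 for TFAP2, 2.11 for TEAD and 1.76 for RUNX. In multi-copy hotspots it was 1.48 for AP-1, from 53 central sites. The direction of the sites relative to the gene was even for TEAD (96 along the gene's strand, 95 against it) and for RUNX (55 and 42), and CTCF had 23 and 33 (41.1% along the strand, 29.2 to 54.1%).

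**Figure D4:**
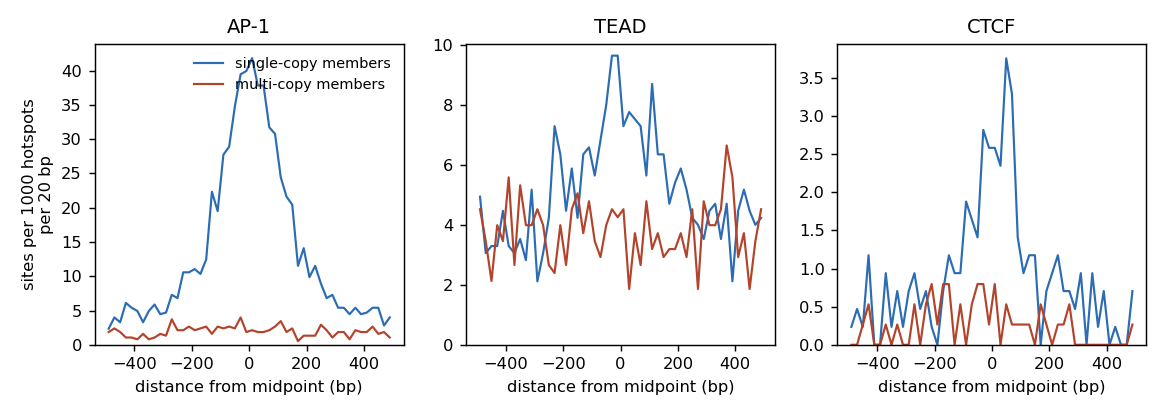
Motif sites per 1000 strong intronic hotspots in 20 bp bins (vertical axis) by distance from the hotspot midpoint in bp (horizontal axis), for single-copy and multi-copy hotspots. AP-1 sites of single-copy hotspots peak at the midpoint, with 8.38 times as many per base within 60 bp as between 300 and 500 bp.

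Over their whole width, 51.2% of the 4256 single-copy hotspots held no AP-1 site, 36.4% held 1, 10.2% held 2, 1.95% held 3, and 14 hotspots held 4 or more. The highest scores in these classes were 45.1, 46.5, 40.7, 34.6 and 53.4, so hotspots with no AP-1 site also reached high scores. Other motifs were compared between the 1584 single-copy hotspots with an AP-1 site in the central 300 bp and the 2672 without one, as a description. CTCF stood at 1.39% beside AP-1 and 3.56% without it, SP at 2.15% and 5.88%, and TFAP2 at 14.6% and 22.0%. TEAD (9.53% and 10.5%) and RUNX (5.68% and 5.24%) had overlapping intervals. The median GC content was 49.0% with and 51.3% without an AP-1 site.

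The hotspot with most AP-1 sites lay in intron 1 of WNT9A, a secreted Wnt ligand (chr1:227934548-227935558, score 36.2), and was picked out after its values were seen. It held 15 sites, all TGAGTCA on the forward strand, at gaps of 29 to 103 bp with a median of 32 bp. Its central window shows 4 of them in capitals within a tandem repeat.
WNT9A (chr1:227934903-227935022): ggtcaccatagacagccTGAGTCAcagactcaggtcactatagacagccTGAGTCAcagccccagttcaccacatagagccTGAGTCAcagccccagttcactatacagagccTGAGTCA
The next highest numbers were 6 sites in TRIP13 and 5 each in PPL (periplakin, of the cornified envelope), AHNAK and NPFFR2. In WNT9A the sites recurred along the repeat, whose 24-mers were still mostly unique in hg38.

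Strong intronic hotspots were spread over many genes. Of 16357 protein-coding genes with intron sequence that the rule could reach (1021 Mb in all), 4175 (25.5%) held at least 1, 2272 held exactly 1 and 309 held 5 or more. A single-copy hotspot was found in 2733. The median length of intron searched was 90179 bp in genes with a hotspot and 14570 bp in genes without, so long genes had more of them. The overall density was 0.791 per 100 kb (0.417 for single-copy hotspots), and it was 1.08 in genes with 5000 to 20000 bp of intron and 0.628 in genes with 300000 bp or more. For single-copy hotspots it was 0.707 and 0.264.

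For single genes, AP-1 sites are counted over the whole width of each hotspot, where 48.8% of the single-copy strong intronic hotspots held at least 1. PTPRN2, a phosphatase-like protein of secretory vesicles, held most, with 21 strong intronic hotspots, but 3 of these were single-copy. RAD51B, of homologous recombination repair, held 19, of which 17 were single-copy, and 9 of these 17 had an AP-1 site (3 in the central 120 bp). RABGAP1L held 16 (1 single-copy) and LINGO2 15 (2 single-copy). RUNX1, the transcription factor, held 15, of which 11 were single-copy, with scores from 10.9 to 29.3, and 7 of the 11 had an AP-1 site (2 of the 15 in the central 120 bp). NAV2 held 15 (12 single-copy, 8 of them with an AP-1 site, and 4 of the 15 with one in the central 120 bp), and ANAPC1, GSE1, TENM4 and RPTOR, a subunit of the mTORC1 kinase complex, held 14 each (4, 12, 11 and 9 single-copy). Genes at the head of the count thus differed widely in how much of it was unique sequence.

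Genes were also read by lists, described by counts beside those of all genes. Among all genes, 25.5% held at least 1 strong intronic hotspot, and the share rose with intron length. It was 10.6% at 5000 to 20000 bp of intron, 63.1% at 100000 to 300000 bp and 89.8% at 300000 bp or more. The gene counts of the lists were not adjusted for length. In the list of basal mammary epithelium, 11 of 18 genes held 22 strong intronic hotspots, 21 of them single-copy, at 1.19 per 100 kb against 0.791 over all genes, whereas 13.1% of its intronic hotspots were strong against 14.4% over all genes. CDH3 (P-cadherin) held 4 with scores of 11.5, 12.4, 13.2 and 14.0, and each held an AP-1 site over its whole width. EGFR, the receptor for the EGF in the medium, held 3 with scores of 13.1, 32.3 and 21.0, all single-copy and each with 1 AP-1 site. TP63 held 3 with scores of 10.5, 19.9 and 21.8, the last of which held AP-1 and TEAD sites over its whole width, and the TEAD site is in the window printed above. PLEC (plectin, of hemidesmosomes) held 3. KRT14, KRT17, LAMA3, LAMB3, COL17A1, CAV1 and TRIM29 held none.

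In the list of luminal mammary epithelium, 7 of 20 genes held 19, at 1.57 per 100 kb (1.16 single-copy), and 9 of the 19 lay in ESR1. The ESR1 hotspots had scores from 10.1 to 32.3, 6 were single-copy, and 4 of these held an AP-1 site over their whole width (1 of the 9 in the central 120 bp). CDH1 (E-cadherin) held 3 with scores of 12.2, 15.7 and 19.6, CLDN4 held 2 (17.1 and 32.8), both with AP-1 sites, and EHF, an epithelial ETS factor, held 2 (10.5 and 25.2), neither with one. GATA3, FOXA1, ELF5, KRT8, KRT19 and EPCAM were among the 13 genes with none. The list's count therefore rested to a large extent on 1 gene. ESR1 also held 446245 bp of the list's 1210 kb of intron, and its own density was 2.02 per 100 kb.

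The list of EGF, ERK and AP-1 response had the highest density, with 14 strong intronic hotspots in 7 of 22 genes, at 2.87 per 100 kb (2.67 single-copy), and 25% of its 56 intronic hotspots were strong against 14.4% over all genes. The median gene held 0, and its introns summed to 487 kb. SPRED2, an inhibitor of the RAS-ERK pathway, held 4, EGFR 3, and ERRFI1, a feedback inhibitor of EGFR, 2, with scores of 34.1 and 10.8. ETS2, an ERK-regulated transcription factor, held 2, with scores of 10.8 and 10.6. FOSL1, FOSB, DUSP6, AREG and PHLDA1 were among the 15 genes with none.

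In the list of glucocorticoid and cAMP response, whose inducers hydrocortisone and cholera toxin were in the medium, 10 of 18 genes held 31 (22 single-copy), at 1.05 per 100 kb. PDE4D held 13, of which 6 were single-copy, ZBTB16 5, PDE4B 4 and ERRFI1 2, and SGK1, KLF9 and CREM held none. In the list of TEAD and YAP1 target genes, 16 of 23 genes held 40 (37 single-copy), at 1.34 per 100 kb. LHFPL2 held 6, with scores of 28.3, 12.8, 10.9, 43.3, 24.8 and 32.3, and the 5 single-copy ones each held an AP-1 site. MYOF (myoferlin) held 6, all single-copy, PTPN14, a phosphatase that binds YAP1, 5 and ASAP1 4. CCN2, ANKRD1 and AXL held none. In the list of adhesion and actin cytoskeleton, 18 of 24 genes held 51 (41 single-copy), at 1.43 per 100 kb, led by TNS3 (tensin 3, 8 hotspots), PARD3 (a cell polarity protein, 6) and ACTN4 (alpha-actinin 4, 4), and the median gene of the list held 2.

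The 4 lists of other cell types had single-copy densities of 0 to 0.715 per 100 kb, beside 0.746 (glucocorticoid and cAMP) to 2.67 in the lists above, 0.948 in the housekeeping list and 0.417 over all genes. These densities were not tested, nor matched for intron length. Over all genes the single-copy density was 0.707 at 5000 to 20000 bp of intron and 0.264 at 300000 bp or more. The share of intronic hotspots that were strong was 17.1% in the mesenchyme, 12.4% in the neuronal and 11.6% in the immune list. It was 13.1% in the basal list, 17.3% to 25% in the other lists above and 14.4% over all genes. In the mesenchyme list, 4 of 12 genes held 6, at 0.716 per 100 kb (0.477 single-copy): ZEB1 3, and ZEB2, TWIST2 and PDGFRA 1 each. In the neuronal list, 9 of 12 genes held 48 in 14349 kb of intron, at 0.335 per 100 kb and 0.112 for single-copy hotspots, led by DLG2 and LSAMP with 10 each, CNTNAP2 with 9 and NRXN3 with 8. Only 16 of those 48 were single-copy. In the immune list, 5 of 13 genes held 1 each, at 0.894 per 100 kb (0.715 single-copy), among them IKZF1 (31.2), PAX5 (17.0), ITGAM (13.5) and PTPRC (10.9). In the hepatocyte list 0 of 10 genes held any, and 0 of its 11 intronic hotspots were strong. Of 13 housekeeping genes, ACTB held 2 (13.7 and 16.3), the first of them with the CTCF site printed above, and the other 12 held none.

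**Figure D5:**
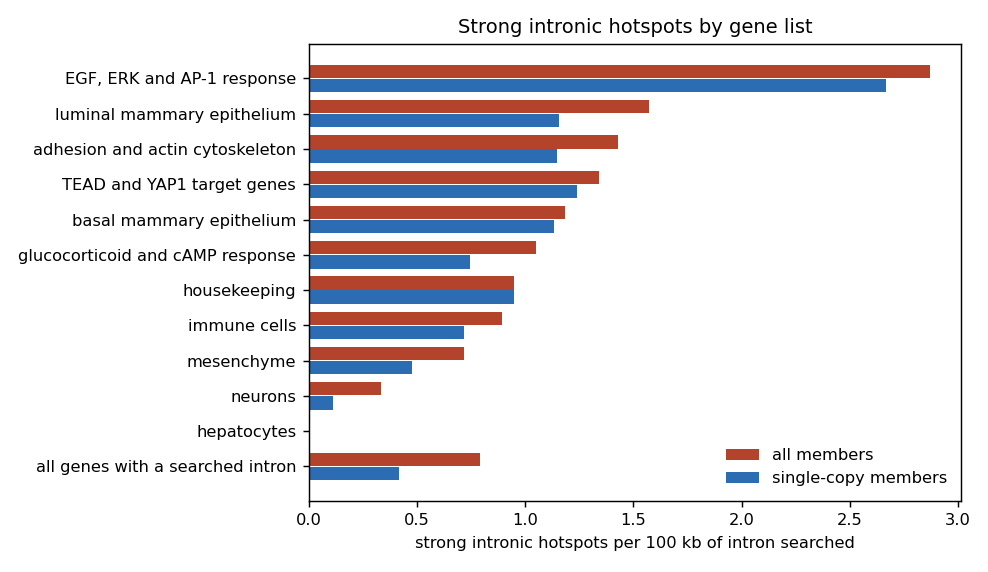
Strong intronic hotspots per 100 kb of intron searched (horizontal axis) in each gene list and in all genes (rows), for all hotspots and for single-copy hotspots. The list of EGF, ERK and AP-1 response is highest at 2.87, all genes stand at 0.791, and the hepatocyte list is at 0.

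First introns often carry regulatory DNA. Among hotspots in an intron of the canonical transcript of a single gene, 1824 of 6601 strong intronic ones (27.6%) lay in the first intron, against 11000 of 39764 weaker ones (27.7%), a difference that did not pass the test (two-sided Fisher's exact test, p = 0.964 adjusted over 3 tests). First introns made up 24.2% of the intron bases searched. Without multi-copy hotspots the shares were 32.4% against 29.1% (exact adjusted p = 0.000115).

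Sequence dense in CpG dinucleotides was a little rarer in strong intronic than in strong intergenic hotspots. By GC of at least 50% and an observed over expected CpG ratio of at least 0.6 in the central 300 bp, 974 of 8080 (12.1%) were CpG-dense, against 1893 of 13362 (14.2%) (two-sided Fisher's exact test, p = 3.09e-05 adjusted over 3 tests). Most of the 974 were repeats: 19.6% of multi-copy and 5.38% of single-copy strong intronic hotspots were CpG-dense. The direction turned, and the difference no longer passed the test, when hotspots within 1000 bp of a TSS of any annotated gene were left out (11.3% against 10.6%, exact adjusted p = 0.201).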

How the data were processed

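ATAC-seq libraries of MCF10A cells (5, Nextera transposition after hypotonic lysis) were pooled by the authors. Per the labels and the study's methods, reads were aligned to hg38 with Bowtie2 (version not given for these libraries in the sources used here), duplicates were removed, and regions were called with Hotspot at a false discovery rate of 0.01 against a local background. The deposited list holds 1 score per hotspot, in a scale that is not given in the sources used here. No shift of reads to the transposase cut is stated. Columns with values per sample numbered 0.

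Positions came from GENCODE 44, with every transcript start of a protein-coding gene taken as a TSS. Each 24-mer was counted on both strands of hg38. The 36 motifs, 11 gene lists and the regions themselves were chosen with earlier results of these data known. Shares were compared by two-sided Fisher's exact tests, Benjamini-Hochberg adjusted over 108 motif tests (36 motifs, 3 comparisons) or over 3 other tests at 0.05. Hotspots of a locus share sequence, as do copies of a repeat across the genome, so hotspots are not independent. The tests counted each hotspot as independent, and intervals (95%, Wilson) cover counting error only. The procedure was tested on simulated data, in which hotspots were drawn independently, so shared sequence was not covered. Genes named were the 10 with most strong intronic hotspots, those holding the 10 highest scores and up to 4 per list; others named by their score, site number or mitochondrial match were chosen after their values were seen. Alternatives changed the threshold, TSS distance, annotation, window, GC range and hotspots per gene; leaving out multi-copy hotspots and using TSSs of coding transcripts only were added after seeing the data. Tests ran in scipy 1.17.1, word counts in numba 0.67.0, tables in pandas 2.3.3 and numpy 2.4.6, and plots in matplotlib 3.10.9, under Python 3.11.15. Some genes, motifs and sequences are not reported here.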

Additional observations from a re-analysis of the deposited data

How the results depend on the processing

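The libraries were pooled before the call, so no library could be left out and depth could not be weighed. No paired analysis was possible because the single list carries no value per replicate. An alternative based on masked repeats was not run, since the genome sequence used was not masked. The number of strong intronic hotspots was 1774 with a score threshold of 20 and 4316 without multi-copy hotspots, against 8080.

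The motifs that differed from strong intergenic hotspots numbered 5, and 0 with a threshold of 20, 3 with no overlap with any annotated exon, 11 over the whole hotspot, 1 in windows of 40 to 60% GC and 0 without multi-copy hotspots. Against weaker intronic hotspots they numbered 12, and 5 with a threshold of 20 and 30 over the whole hotspot. Against strong promoter hotspots they numbered 27, and 16 with a threshold of 20 and 11 in windows of 40 to 60% GC. Whole hotspots differ in width between these classes.

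Directions turned in these cases, given as the log2 ratio of strong intronic over the other class. Against strong intergenic hotspots SP was 0.58 when TSSs of any annotated gene were used. Against weaker intronic hotspots CEBP was -0.34 and SMAD3 -1.63 with a threshold of 20, CTCF 0.50, GABPA/ELK 1.24 and KLF 0.24 over the whole hotspot, SP -0.07 in windows of 40 to 60% GC, and KLF 0.23 without multi-copy hotspots. Against strong promoter hotspots CTCF was -0.05 and SMAD3 -0.96 with a threshold of 20, CTCF -0.54, EHF/ELF -0.08, KLF -0.88, SOX -0.001 and SMAD3 -0.26 over the whole hotspot, and EHF/ELF -0.31 in windows of 40 to 60% GC. The first-intron ratio was 0.15 without multi-copy hotspots, against -0.001, and the CpG-dense ratio was 0.06 with no overlap with any annotated exon and 0.09 with TSSs of any annotated gene, against -0.23. The causes were not tested. Of the 37 named motif shares that passed the test, 296 values under the alternatives kept direction and call, 66 lost the call and 13 turned.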

Other observations

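Strong intronic hotspots lay at a median gap of 105 kb from the next, and 13.5% of the gaps were at most 5 kb (7.13% between single-copy hotspots, whose median gap was 199 kb). The longest run with gaps of at most 5 kb held 6 hotspots in SMIM36 (chr17:55501751-55507563), and runs of 5 lay in DLG2, KATNAL2, CNTNAP5, CFAP20DC and SUPT3H. All hotspots of these runs were multi-copy except 1 in SUPT3H. Scores in the KATNAL2 run ranged between 32.1 and 90.9.

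Scores of single-copy hotspots fell on a ladder. There were 28 score values that at least 20 strong intronic hotspots shared exactly, from 10.1243 to 21.4042, and 24 of the 27 gaps between neighbouring values were 0.376. Such a shared value was held by 2018 of the 4256 single-copy hotspots (47.4%, 45.9 to 48.9%), 89 of the 3764 multi-copy hotspots (2.36%, 1.93 to 2.90%) and 0 of the 60 narrow ones, which allows a share of up to 6.02% (Wilson). What sets the steps was not tested.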
